A study of Bos indicus with 12 samples.

Results

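The nuclear genes that encode the subunits of mitochondrial complexes I to V were described in the bovine corpus luteum (CL) of pregnant and non-pregnant cows. They were taken by gene symbol, as the rows named NDUFA, NDUFB, NDUFC, NDUFS or NDUFV followed by a digit, SDHA to SDHD, UQCR, COX4 to COX8 without a longer suffix, and ATP5. The rule found 76 genes among the 15178 rows of the table, and it used no comparison of P with NP. Of these, 36 belonged to complex I, 4 to complex II, 8 to complex III, 10 to complex IV and 18 to complex V. NDUFA4 and NDUFA4L2 were placed with complex IV, because the NDUFA4 protein is known as a subunit of that complex in spite of its name. The mitochondrially encoded subunits and COX5B, COX6B1, COX6C and COX7C were not analysed here.

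The respiratory chain sits in the inner mitochondrial membrane. Complexes I and II pass electrons from NADH and succinate to ubiquinone, complex III hands them to cytochrome c, and complex IV gives them to oxygen. Complexes I, III and IV pump protons as they do so, and complex V, the ATP synthase, lets the protons back in and makes ATP. Each complex is built from many different proteins in fixed proportions, so that its subunit genes are often described as a group. In the CL, the gland that forms from the ovulated follicle and secretes progesterone, mitochondria also carry out the first step of steroid synthesis, the cleavage of the cholesterol side chain by CYP11A1.

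The glands were taken on day 18, 6 of them from pregnant cows (P) and 6 from non-pregnant cows (NP), and poly-A RNA was sequenced with 1 library per cow. All were non-lactating, multiparous Bos indicus cows under 1 synchronization protocol, and the P cows were inseminated. Pregnancy was established from an elongated embryo in the uterine flush. The methods also name expression of interferon-stimulated genes and serum progesterone in the choice of cows. The 6 cows per group were those kept for the quality and quantity of their RNA. The stated purpose was to find how the CL of P and NP cows differs at this time. The NP cows are named by status only, and the age of the cows is not given in the sources used here.

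Values are normalized counts, that is, reads counted per gene divided by a size factor of the library. The reads behind them numbered 2038858 to 7534503 per P library (median 4392938) and 6148184 to 8253360 per NP library. The 3 smallest libraries were those of P cows 28, 18 and 01, so that depth and group cannot be fully told apart, and calls are also given without these 3 cows, a choice made after their values had been seen. The tissue carried the markers of its label. Of 10 luteal genes, among them STAR and CYP11A1, 9 were analysed here, and their summed level was 207679 to 293773 normalized counts in P and 168932 to 302058 in NP. Among them PTGFR, the receptor of the prostaglandin that brings about regression of the CL, was lower (log2 fold change -1.79, adjusted p = 0.00193), also without the 3 cows (-1.31, adjusted p = 0.0309). Whole tissue was sequenced, so that fewer cells of a type and less RNA per cell cannot be told apart. Among markers of other cells, the endothelial genes PECAM1 and CDH5, PDGFRB of pericytes and LUM of fibroblasts were lower in P, and MYH11, CNN1 and DES of smooth muscle, PDGFRA of fibroblasts, CD3E of T cells and HBB of red cells were higher. Of these, PECAM1, CDH5 and LUM were called also without the 3 cows. Calls came to 2 of 10 endothelial, 4 of 8 pericyte and smooth muscle, 2 of 6 fibroblast and 1 of 10 leukocyte genes. Over all genes tested, 26.8% were called. Summed endothelial levels were 4008 to 9782 normalized counts in P and 6361 to 10641 in NP. Those of leukocyte genes were 870 to 1631 in P and 627 to 1568 in NP. The red cell genes were low, with sums of 20.1 to 51.9 in P and 7.38 to 19.3 in NP. The part of these cells in the results below was not tested.

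Subunit genes moved in both directions within the same complexes. Of the 76 genes, 74 reached 30 normalized counts in at least 1 cow and were tested with limma, and COX6B2 and COX8B stayed below that level. Of the 74, 6 were higher in P (NDUFB1, NDUFA3, NDUFS8, NDUFS5, ATP5MF and ATP5ME) and 13 were lower (among them NDUFS1, NDUFA12, NDUFB11, SDHA, SDHC, COX5A, COX6A1, COX7A2, ATP5F1A, ATP5F1B, ATP5F1C and ATP5MC2). A call, here and below, needs both an adjusted p (Benjamini-Hochberg) under 0.05 and a change of 0.58 or more on the log2 scale, up or down. The calls came to 25.7% of the subunits, against 26.8% of the 11907 genes tested, so that the number of calls does not set the subunits apart. Calls of higher genes made up 8.11% of the subunits and 12% of all genes, and calls of lower genes 17.6% and 14.8%. The median log2 fold change of the subunits was -0.06, against -0.01 over all genes.

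The groups did not overlap, with every P cow on one side of every NP cow, for 12 of the 74 subunits. These were 5 higher genes (NDUFB1, NDUFA3, NDUFS8, ATP5MF and ATP5ME) and 7 lower genes (among them SDHA, SDHC, COX5A, ATP5F1A, ATP5F1B and ATP5MC2). They made up 16.2% of the subunits, against 13.6% of all genes (6.21% of all genes on the higher side and 7.41% on the lower). A further 7 subunits had an adjusted p below 0.05 but missed the fold minimum, as did 7.74% of all genes. At any fold, the adjusted p was below 0.05 in 35.1% of the subunits and in 34.6% of all genes. Just inside the minimum lay ATP5F1C (log2 fold change -0.59), and just outside lay NDUFV3 (-0.57).

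**Figure D1:**
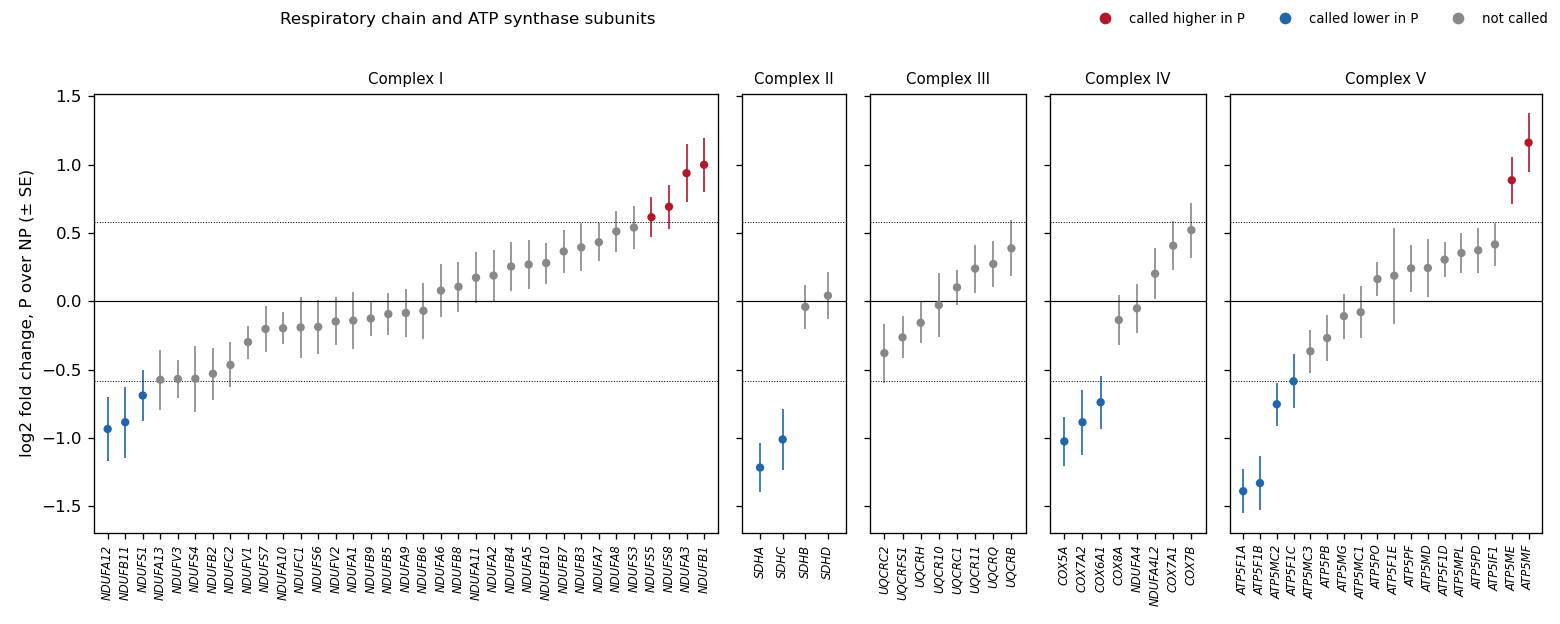
Log2 fold change of tested subunit genes, P over NP, by complex, with the standard error from limma as a bar (6 P and 6 NP cows). Red marks genes called higher in P, blue genes called lower and grey the rest, and dotted lines mark the fold minimum of 0.58. Called genes lie on both sides in complexes I and V and on the lower side in complexes II and IV, and in complex III all points are grey.

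Without P cows 01, 18 and 28, the called subunits were 7 higher and 6 lower, and 5 and 5 of these were called in the same direction with all cows. They made up 17.6% of the subunits, against 11.8% of all genes (4.01% of all genes called higher and 7.81% lower). The median subunit then lay at 0.15. The calls that were present both with and without the 3 cows were NDUFB1, NDUFS8, NDUFS5, ATP5MF and ATP5ME on the higher side, and SDHA, SDHC, COX5A, ATP5F1A and ATP5F1B on the lower side. COX7B, NDUFB3 and UQCRC2 were called only without the 3 cows, a difference between the fits that was not itself tested.

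Complex V showed the widest spread of fold changes, from -1.39 to 1.16 on the log2 scale. Its catalytic head F1 is a ring of alpha and beta subunits around the gamma shaft, where ATP is formed. ATP5F1A, the alpha subunit, had 1255, 1532 and 2281 normalized counts in P (lowest, median and highest of 6 cows), against 3710, 4294 and 5181 in NP. ATP5F1B, the catalytic beta subunit, had 967.2, 1411 and 2240 normalized counts in P, against 3298, 3688 and 4416 in NP. For both genes the highest P cow lay well below the lowest NP cow. The means differed 2.57-fold for ATP5F1A (log2 fold change -1.39, 95% confidence interval -1.73 to -1.05, adjusted p = 0.000421) and 2.42-fold for ATP5F1B (-1.33, -1.75 to -0.92, adjusted p = 0.00093). ATP5F1C, the gamma subunit, was lower by less, and its groups overlapped (803.0 to 1814 normalized counts in P and 1503 to 2264 in NP, log2 fold change -0.59, adjusted p = 0.0316). Its call was lost in 11 of 25 alternatives, among them edgeR, DESeq2 and the fit without the 3 cows (-0.20, adjusted p = 0.428). The other head subunits, ATP5F1D (delta, 0.31) and ATP5F1E (epsilon, 0.19), were not called.

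The F0 part of the synthase, which lies in the membrane, held genes that moved each way. ATP5MF, the f subunit of the membrane part, had 2386, 2781 and 4481 normalized counts in P, against 894.8, 1437 and 1997 in NP. ATP5ME, the e subunit, which helps to join synthases into dimers, had 1163, 1537 and 2068 normalized counts in P, against 534.0, 882.0 and 1059 in NP. Both were higher in every P cow than in any NP cow, by 2.20-fold for ATP5MF (log2 fold change 1.16, 95% confidence interval 0.71 to 1.61, adjusted p = 0.00177) and 1.84-fold for ATP5ME (0.89, 0.52 to 1.25, adjusted p = 0.00224). The c ring, whose rotation drives the shaft, is encoded by ATP5MC1, ATP5MC2 and ATP5MC3, 3 genes for the same mature protein. ATP5MC2 was lower, with 524.4, 773.1 and 993.2 normalized counts in P, against 1075, 1211 and 1374 in NP (log2 fold change -0.75, 95% confidence interval -1.09 to -0.42, adjusted p = 0.00316), and the groups did not overlap. Without the 3 cows its fold change of -0.52 missed the fold minimum. ATP5MC1 (-0.08) and ATP5MC3 (-0.37) were not called.

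Among the remaining genes of complex V, none of the 4 stalk genes (ATP5PB, ATP5PD, ATP5PF and ATP5PO) was called by limma, edgeR or DESeq2, and 1 of them, ATP5PD, passed 0.05 with limma before adjustment. Their log2 fold changes lay between -0.27 and 0.37. ATP5IF1, the inhibitor that blocks ATP hydrolysis by F1, had a log2 fold change of 0.42 and an adjusted p = 0.0499, and missed the fold minimum. The small membrane subunits ATP5MG (-0.11), ATP5MD (0.24) and ATP5MPL (0.35) were not called.

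The opposite moves of 1 head gene, ATP5F1A, and 1 membrane gene, ATP5MF, could be followed in each cow. The value of ATP5F1A divided by that of ATP5MF was 0.335, 0.57 and 0.876 in P cows (lowest, median and highest), against 1.87, 3.05 and 5.79 in NP cows. This pair was picked after its values had been seen, so the ratio is given without a test. It is free of the size factor of the library but not of transcript length, and only its difference between cows can be read.

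**Figure D2:**
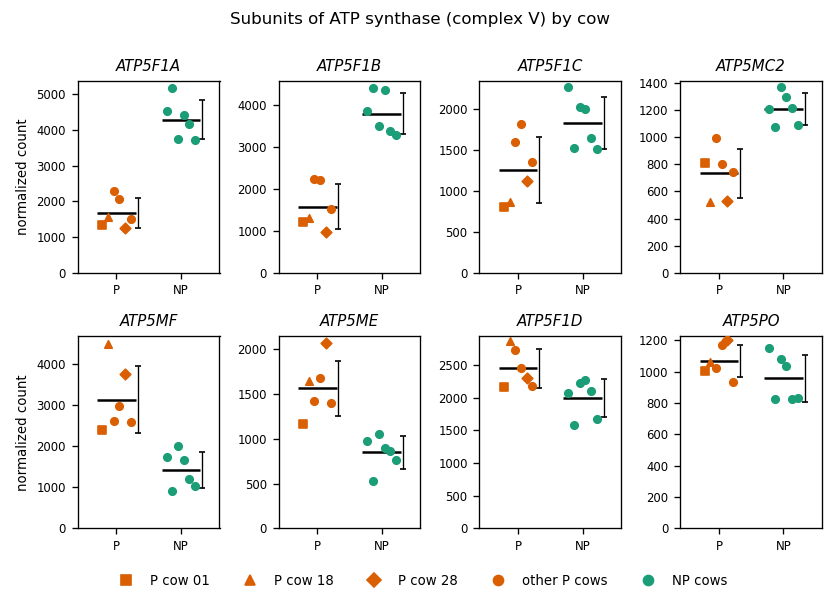
Normalized counts of 8 complex V genes (vertical axes from 0, a scale for each gene), 1 point per cow, P left and NP right, with the mean as a line and the SD as a bar (n = 6 each). Squares, triangles and diamonds mark P cows 01, 18 and 28. In ATP5F1A and ATP5F1B all P cows lie below all NP cows, and in ATP5MF and ATP5ME all lie above them.

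In complex II, the succinate dehydrogenase that also serves the citric acid cycle, the subunits split in pairs. SDHA, the flavoprotein that oxidizes succinate, had 729.0, 911.2 and 1533 normalized counts in P, against 1808, 2243 and 2924 in NP. SDHC, an anchor in the membrane, had 56.0, 93.5 and 129.6 normalized counts in P, against 134.6, 162.5 and 299.1 in NP. Neither gene had any overlap between the groups, and the means differed 2.27-fold for SDHA (log2 fold change -1.22, 95% confidence interval -1.60 to -0.84, adjusted p = 0.00093) and 2.03-fold for SDHC (-1.01, -1.48 to -0.54, adjusted p = 0.00412). SDHC rested on 36 to 357 reads per library.

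The partners of these genes were not called. SDHB, the iron-sulfur subunit beside SDHA, had 1249, 1424 and 2149 normalized counts in P, against 1206, 1709 and 1827 in NP (log2 fold change -0.04, 95% confidence interval -0.39 to 0.30). SDHD, the second membrane anchor, had 448.9, 778.2 and 948.9 normalized counts in P, against 573.7, 686.3 and 873.2 in NP (0.04, -0.32 to 0.41). Both genes overlapped widely between P and NP, and the intervals leave out a fall of the size seen in SDHA or SDHC. The sign of either fold change turned with the choice of cows.

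Complex I is an L-shaped enzyme with a matrix arm, made of the N module that takes electrons from NADH and the Q module that reduces ubiquinone, and a membrane arm, the P module, that pumps protons. In the Q module NDUFS8 rose. This subunit, which carries iron-sulfur clusters, had 1181, 1480 and 1674 normalized counts in P, against 595.5, 907.0 and 1135 in NP (log2 fold change 0.69, adjusted p = 0.00548). The groups did not overlap. NDUFS3 of this module had a log2 fold change of 0.54 and an adjusted p = 0.0179, short of the fold minimum.

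In the membrane arm 3 small accessory subunits rose. NDUFB1 had 827.4, 991.9 and 1592 normalized counts in P, against 346.3, 550.6 and 688.9 in NP (log2 fold change 1.00, 95% confidence interval 0.58 to 1.42, adjusted p = 0.00234). NDUFA3 had 1426, 1697 and 2153 normalized counts in P, against 515.6, 934.7 and 1331 in NP (0.94, 0.49 to 1.38, adjusted p = 0.00447). NDUFS5 had 910.5, 1193 and 1352 normalized counts in P, against 545.4, 793.5 and 948.5 in NP (0.62, 0.30 to 0.93, adjusted p = 0.00612). NDUFB1 and NDUFA3 had no overlap between the groups, whereas the lowest P cow for NDUFS5 lay below the highest NP cow. NDUFA3 lost its call without the 3 cows by a narrow margin (0.88, adjusted p = 0.0527), and NDUFS5 lost it without P cow 27 (0.57), NP cow 22 (0.52) or NP cow 42 (0.57).

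NDUFB11 was the 1 gene of the membrane arm that fell, with 456.5 to 1496 normalized counts in P and 1240 to 1946 in NP (log2 fold change -0.88, adjusted p = 0.0167). The groups overlapped, and without the 3 cows the value was -0.34 (adjusted p = 0.255). Among the other 17 genes of the arm NDUFA8 had an adjusted p below 0.05 on the higher side, and NDUFB2 and NDUFC2 on the lower side, all short of the fold minimum.

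In the N module 2 genes fell. NDUFA12, an accessory subunit, had 28.7, 29.9 and 54.4 normalized counts in P, against 41.9, 75.7 and 82.4 in NP (log2 fold change -0.93, 95% confidence interval -1.43 to -0.44, adjusted p = 0.0078), and it rested on 11 to 127 reads per library. NDUFS1, the largest iron-sulfur protein of complex I, had 199.5 to 351.7 normalized counts in P and 340.6 to 594.9 in NP (-0.69, adjusted p = 0.0106). Both genes had a small overlap between the groups, and neither was called without the 3 cows. NDUFV3, a small accessory subunit, had 269.4, 309.2 and 443.3 normalized counts in P, against 415.3, 486.9 and 613.9 in NP (-0.57, adjusted p = 0.00725), just short of the fold minimum. NDUFV1, the subunit that binds NADH and its flavin, was not called (-0.30, adjusted p = 0.0662), nor was NDUFV2 (-0.15). NDUFA7 of this module lay on the higher side (0.43, adjusted p = 0.0274) and missed the fold minimum.

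**Figure D3:**
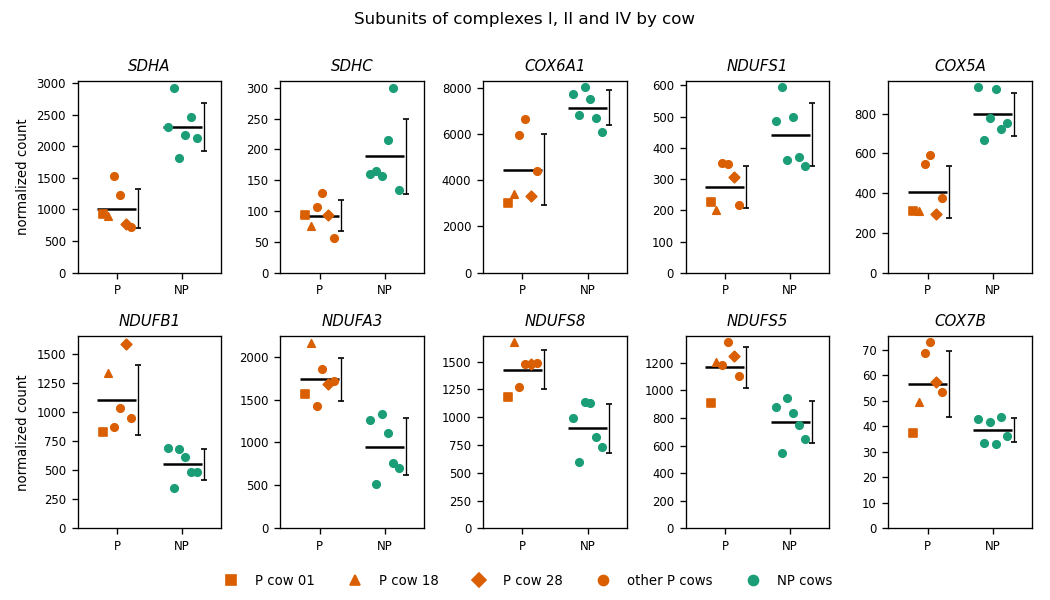
Normalized counts of 10 genes of complexes I, II and IV (vertical axes from 0, a scale for each gene), 1 point per cow, P left and NP right, with the mean as a line and the SD as a bar (n = 6 each). Symbols mark P cows 01, 18 and 28. SDHA, SDHC and COX5A are lower in all P cows than in all NP cows, and NDUFB1, NDUFA3 and NDUFS8 are higher.

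In complex IV, cytochrome c oxidase, the 3 called genes all fell. COX5A, a subunit on the matrix side, had 295.4, 342.5 and 589.7 normalized counts in P, against 669.0, 766.1 and 932.3 in NP (log2 fold change -1.03, 95% confidence interval -1.41 to -0.64, adjusted p = 0.00152). COX6A1, the form of subunit VIa outside striated muscle, had 3034, 3905 and 6670 normalized counts in P, against 6070, 7174 and 8047 in NP (-0.74, -1.16 to -0.32, adjusted p = 0.0104). COX7A2, the widely expressed form of subunit VIIa, had 104.2, 212.4 and 321.6 normalized counts in P, against 296.6, 366.4 and 545.1 in NP (-0.89, -1.39 to -0.38, adjusted p = 0.0108). For COX5A the groups lay apart. In COX6A1 and COX7A2 the P cows 19 and 27 were the highest, and P cow 27 reached the NP range in both. Without the 3 small libraries COX5A was still called (-0.68, adjusted p = 0.0261), and COX6A1 (-0.35) and COX7A2 (-0.47) were not.

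No gene of complex IV was called higher by limma or edgeR. At an unadjusted p below 0.05, 2 genes lay on the higher side with limma, COX7B and COX7A1, and 1 with edgeR. COX7B had 37.5, 55.5 and 73.2 normalized counts in P, against 33.02, 39.0 and 43.6 in NP (log2 fold change 0.52, adjusted p = 0.0559), and DESeq2 called it (0.59, adjusted p = 0.0221). COX8A (-0.14), NDUFA4 (-0.05) and NDUFA4L2 (0.20) were not called. COX6B2 reached at most 11.2 normalized counts in P and 16.4 in NP, and COX8B at most 12.3 in P and 5.75 in NP, and both were left out of the tests.

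None of the 8 complex III genes was called by limma, edgeR or DESeq2, and none had an unadjusted p below 0.05 by any of these tools. UQCRB, a small subunit needed for the assembly of the complex, had 394.6, 747.8 and 899.2 normalized counts in P, against 358.7, 512.9 and 681.9 in NP (log2 fold change 0.39, 95% confidence interval -0.05 to 0.82). UQCRFS1, the Rieske iron-sulfur protein, had 611.2, 822.3 and 930.6 normalized counts in P, against 676.3, 981.2 and 1197 in NP (-0.26, -0.59 to 0.06). UQCRC2, a core protein, had 141.7, 170.8 and 326.9 normalized counts in P, against 197.8, 238.0 and 369.0 in NP (-0.38, -0.84 to 0.08). The groups overlapped in all of them, and the intervals still allow a change past the fold minimum in several, UQCRB, UQCRFS1 and UQCRC2 among them. UQCRC2 was called lower when P cows 01, 18 and 28 were left out (-0.63, adjusted p = 0.0444). The second core protein, UQCRC1, had 1171, 1404 and 1579 normalized counts in P, against 1064, 1313 and 1502 in NP (0.10, -0.17 to 0.38), and UQCRQ had 306.4, 475.1 and 564.6 in P, against 273.3, 380.6 and 480.5 in NP (0.27, -0.08 to 0.63).

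The P cows differed from each other in how their subunit genes were placed. Counting the 74 tested subunits that lay outside the range of the NP cows, P cow 01 had 5 above and 34 below it, and P cow 18 had 15 above and 25 below. P cow 27 had 36 above and 10 below, and P cow 19 had 30 above and 11 below. P cow 28 had 24 above and 22 below, and P cow 29 had 18 above and 26 below. The same counts over all tested genes were not computed, so what is particular to the subunits cannot be read from them. The genes named above as lower in all P cows were low also in cows 19 and 27, as the plot of single cows shows.

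The subunits of 1 cow were spread more widely around the NP mean in P than in NP. The interquartile range of the log2 differences from the NP mean was 0.50 to 0.98 over the 6 P cows, against 0.16 to 0.38 over the 6 NP cows, where each NP cow was set against the other 5. Over all tested genes the same range was 0.66 to 1.26 in P and 0.34 to 0.60 in NP, so that the wider spread was not limited to the subunits. By this design, genes that differ between the groups widen the range in P, because P cows were set against the NP mean. Together the 76 genes held 1.00% to 1.44% of the summed normalized counts in P cows and 1.201% to 1.54% in NP cows. The summed values of complex II were 2673, 3099 and 4599 normalized counts in P, against 4129, 4870 and 5161 in NP, and those of complex IV were 6259, 8286 and 12264 in P, against 10434, 12371 and 14138 in NP. Such sums weigh abundant genes most. By group mean, SDHA made up 1014 of 3395 in P and 2303 of 4776 in NP. COX6A1, not called without the 3 cows, made up 4464 of 8945 in P and 7147 of 12302 in NP. The sums of complex V were 18404 to 27361 in P and 21677 to 28956 in NP. The sums of complexes I (18571 to 28982 in P and 18830 to 26720 in NP) and III (5233 to 7864 in P and 4985 to 7639 in NP) covered nearly the same range in both groups.

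**Figure D4:**
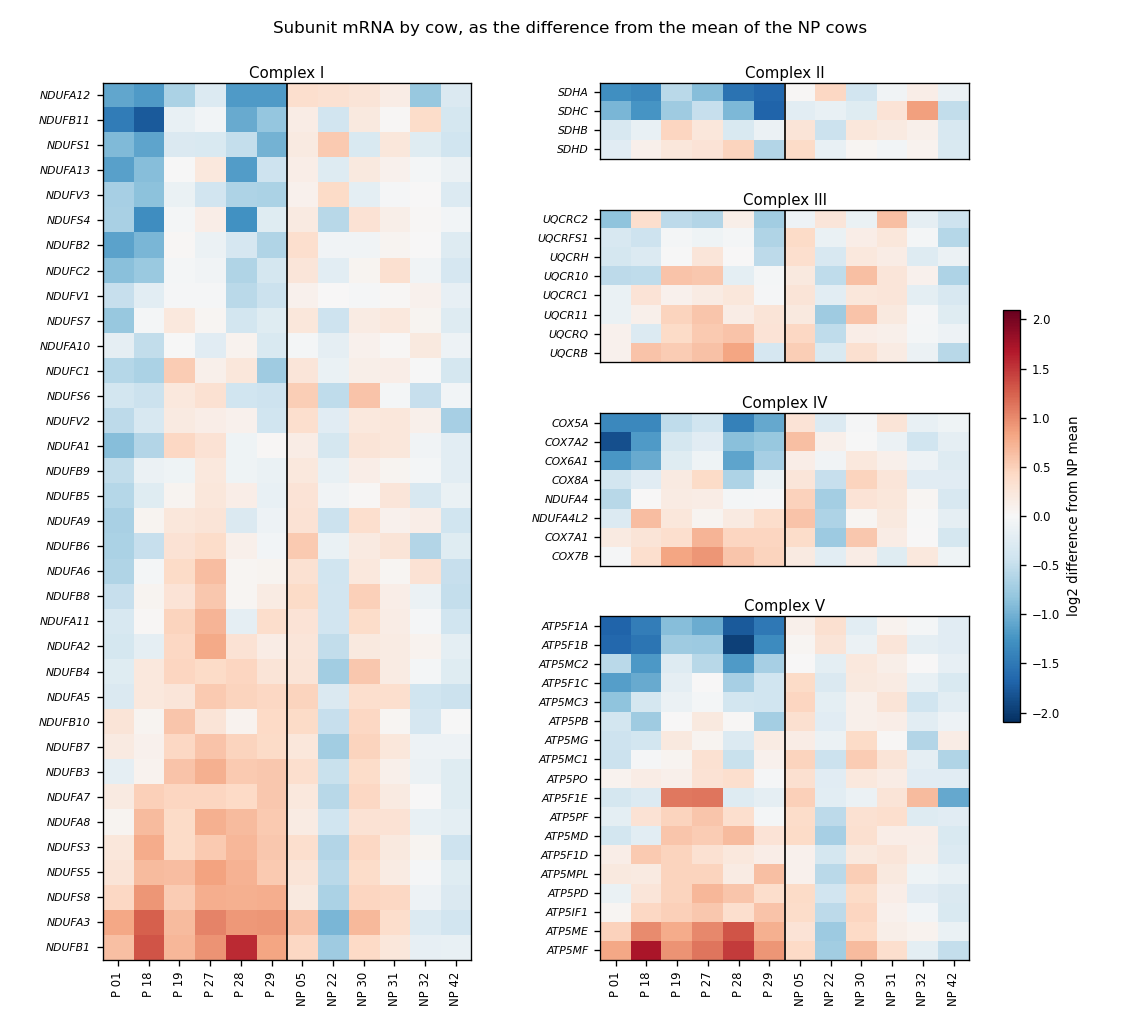
Difference of tested subunits from the mean of the NP cows on the log2 scale, by cow (columns, 6 P cows left and 6 NP cows right of the line) and gene (rows, by complex, ordered by fold change). Each NP cow is set against the other 5 NP cows, and red is higher and blue lower. Blue rows at the top of complexes II, IV and V and red rows at the foot of complexes I and V run through all 6 P cows.

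Several subunits exist as isoforms from separate genes, and their ratio within a cow does not depend on the size factor. Of 6 pairs compared, COX7A1 over COX7A2 differed between the groups. COX7A1 is the form of subunit VIIa that is typical of heart and skeletal muscle and is also known from smooth muscle. It had 192.2, 224.1 and 279.0 normalized counts in P, against 108.4, 177.5 and 235.8 in NP, and was itself not called (log2 fold change 0.41, adjusted p = 0.09). The log2 ratio of COX7A1 to COX7A2 averaged 0.13 ± 0.45 in P and -1.16 ± 0.45 in NP (SD, n = 6 each), higher in 6 of 6 P cows than in any NP cow. The difference was 1.29 (two-sided exact permutation p = 0.00216, the smallest that 6 against 6 cows can give, 0.013 after Benjamini-Hochberg adjustment over 6 pairs). The pairs share COX7A2 and ATP5MC3 and are not independent.

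Without P cows 01, 18 and 28 this difference was 0.98, with an adjusted exact p = 0.143, where 3 against 6 cows can give no p below 0.0119 before adjustment. Levels of muscle genes are given beside this ratio. The summed level of 6 striated muscle genes was 32.7 to 145 normalized counts in P (32.7 to 57.7 without the 3 cows) and 10.1 to 32.8 in NP, with ACTA1, TNNT3, CKM and MB at 0 in some cow. Of the 6, 2 were tested, with log2 fold changes of 1.22 and 1.63. With all cows limma called neither, edgeR called 1 of the 2 higher and DESeq2 called 2 of 2 higher. Limma called neither without the 3 cows. The summed level of 8 genes of smooth muscle and pericytes was 6224 to 15561 normalized counts in P and 5574 to 14073 in NP, and 3 of them were called higher and 1 lower. Without the 3 cows limma called none of these 4, and all had an unadjusted p below 0.05. Their part in the COX7A1 to COX7A2 ratio was not tested.

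The other 5 ratios did not pass the adjusted threshold. COX4I2 over COX4I1, where COX4I2 is the form known from lung and low oxygen, differed by 0.75 on the log2 scale (exact permutation p = 0.0584, adjusted 0.0831). COX7A2L over COX7A2 differed by 0.66 (exact permutation p = 0.0368, adjusted 0.0831) and NDUFA4L2 over NDUFA4 by 0.25 (exact permutation p = 0.0498, adjusted 0.0831). The c ring pairs differed by 0.29 for ATP5MC1 over ATP5MC3 (exact permutation p = 0.0693, adjusted 0.0831) and by -0.39 for ATP5MC2 over ATP5MC3 (exact permutation p = 0.0844, adjusted 0.0844). In 4 of these pairs, all but ATP5MC1 over ATP5MC3, leaving out a single P cow took the adjusted p below 0.05.

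**Figure D5:**
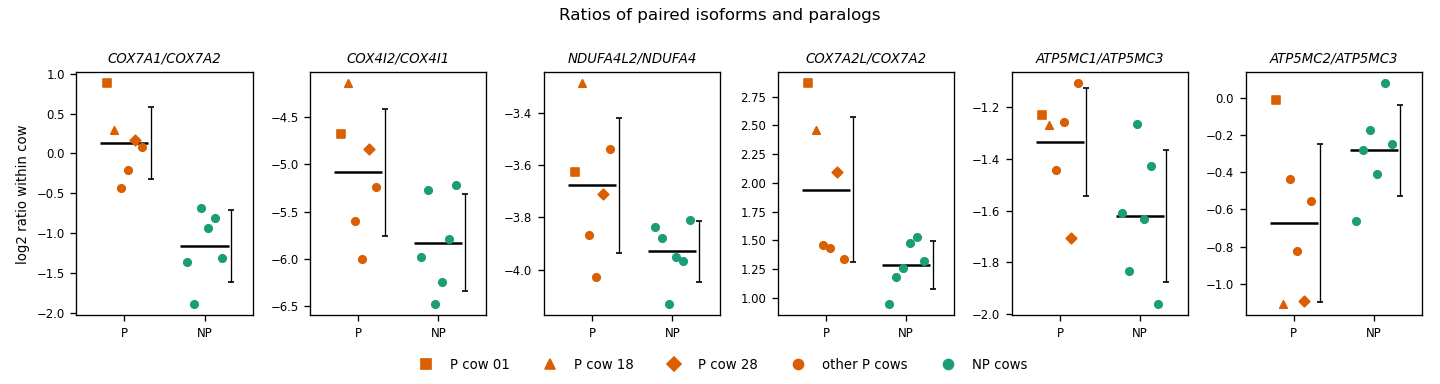
Log2 ratio of the normalized counts of 2 genes in each cow, for 6 pairs (a vertical scale for each pair), P left and NP right, with the mean as a line and the SD as a bar (n = 6 each). Symbols mark P cows 01, 18 and 28. For COX7A1 over COX7A2 the P cows lie between -0.44 and 0.88, all above the NP cows (-1.89 to -0.68).

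Genes that build and supply the complexes also moved in both directions. Of 182 tested genes in 12 lists, 12 were higher and 27 lower in P. These calls came to 6.59% higher and 14.8% lower, against 12% and 14.8% of all genes tested. The share called lower matched that of all genes, and the share called higher was smaller. This difference was not tested. When the 3 cows were left out, 7 were higher and 10 lower, together 9.34%, against 11.8% of all genes in that fit. The single lists are small, and their counts are descriptions. Among 23 assembly factors of complex IV, 5 were higher and 3 lower (21.7% and 13%, against 12% and 14.8% of all genes). PET100, which is needed to assemble the complex in human cells, had 223.6, 338.9 and 510.0 normalized counts in P, against 78.6, 133.4 and 162.8 in NP (log2 fold change 1.44, adjusted p = 0.00093). COX20, a chaperone of the mitochondrially encoded subunit COX2, had 278.5, 307.2 and 384.3 normalized counts in P, against 130.0, 189.3 and 231.7 in NP (0.80, adjusted p = 0.00178). Neither overlapped between the groups, and both were called without the 3 cows. The lower genes of this list were COX15, COX18 and TACO1, of which TACO1 lost its call without the 3 cows (-0.45, adjusted p = 0.172).

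Of the 19 assembly factors of complex I, 2 were higher and 5 lower (10.5% and 26.3%, against 12% and 14.8% of all genes). Leaving out the 3 cows, limma called 1 lower and 0 higher, with 4 on the higher side at an unadjusted p below 0.05. ACAD9 had 132.6, 203.1 and 246.8 normalized counts in P, against 78.0, 108.4 and 127.3 in NP (log2 fold change 0.88, adjusted p = 0.00341). NDUFAF7, a methyltransferase, had 27.7, 52.2 and 66.3 normalized counts in P, against 72.2, 88.2 and 117.4 in NP (-0.97, adjusted p = 0.00601). Neither gene overlapped between the groups. NDUFAF7 was still called without the 3 cows (-0.69, adjusted p = 0.0415), and ACAD9 was not (0.63, adjusted p = 0.0618). Of the 5 assembly factors of complex III, 1 was higher and 2 were lower (20% and 40%, against 12% and 14.8% of all genes). BCS1L, which inserts the Rieske protein, was higher (0.60, adjusted p = 0.00748), and TTC19 (-1.16, adjusted p = 0.00346) and UQCC3 (-1.74, adjusted p = 0.00536) were lower. UQCC3 had 7.84, 40.1 and 87.2 normalized counts in P, against 106.5, 113.1 and 128.7 in NP. TTC19 and UQCC3 were called also without the 3 cows, and BCS1L was not (0.49, adjusted p = 0.0786). Neither limma, edgeR nor DESeq2 called any of the 4 assembly factors of complex II or the 5 of complex V. In the first list SDHAF2 had an adjusted p = 0.0284 with limma and missed the fold minimum (-0.47), and SDHAF3 passed 0.05 on the higher side before adjustment only, as did FMC1 in the second.

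The 24 tested genes of the citric acid cycle and of pyruvate entry included 5 that were lower, among them DLST, SUCLA2, MDH2 and PDK3 (20.8%, against 14.8% of all genes). DLST, a core of the oxoglutarate dehydrogenase, had 399.9, 480.8 and 614.7 normalized counts in P, against 788.7, 955.4 and 1157 in NP (log2 fold change -1.01, adjusted p = 0.000775). SUCLA2, a subunit of succinyl-CoA ligase, which makes the succinate used by complex II, had 86.5, 119.4 and 222.6 normalized counts in P, against 224.1, 274.7 and 322.8 in NP (-1.05, adjusted p = 0.00228). Both were called also without the 3 cows, and no other gene of the list was. No gene of this list was called higher by limma, edgeR or DESeq2, and 1 had an unadjusted p below 0.05 on that side.

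Of 24 genes of the mitochondrial membranes and protein import, 1 was higher and 5 were lower (4.17% and 20.8%, against 12% and 14.8% of all genes). VDAC3, a channel of the outer membrane, had 248.3, 355.2 and 701.1 normalized counts in P, against 838.2, 933.0 and 1061 in NP (log2 fold change -1.22, adjusted p = 0.00156), and TOMM70, an import receptor, had 227.4, 282.9 and 379.0 in P, against 408.0, 476.4 and 514.2 in NP (-0.69, adjusted p = 0.00235). A separate list, of 19 genes for the expression of mitochondrial DNA, held 1 higher and 1 lower gene (5.26% each, against 12% and 14.8% of all genes). The lower gene was TFAM, which packs and transcribes mitochondrial DNA. It had 7.41, 12.1 and 18.8 normalized counts in P, against 19.8, 38.3 and 66.0 in NP (-1.56, adjusted p = 0.00362). In TFAM the groups lay apart, at low counts. The higher gene of this list was TRMT10C, part of the enzyme that cuts mitochondrial transfer RNAs from their precursors (0.70, adjusted p = 0.00578). VDAC3 and TFAM were still called without the 3 cows, and TOMM70 (-0.50, adjusted p = 0.0335) and TRMT10C (0.50, adjusted p = 0.0437) missed the fold minimum. Among 13 regulators of mitochondrial biogenesis only GABPB1 was called, on the higher side (7.69%, against 12% of all genes). GABPB1, a subunit of nuclear respiratory factor 2, had a log2 fold change of 0.78 (adjusted p = 0.0101). It was not called without the 3 cows (0.63, adjusted p = 0.0726). ESRRA was not called (0.38, adjusted p = 0.0523).

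Of 19 electron carrier genes 1 was higher, COQ8A (log2 fold change 0.60, adjusted p = 0.0112), and 3 were lower, among them COQ5, a methyltransferase of ubiquinone synthesis (-1.02, adjusted p = 0.00604). These came to 5.26% and 15.8%, against 12% and 14.8% of all genes. Without the 3 cows limma called none of them (1 higher and 2 lower at an unadjusted p below 0.05), with 0.51 for COQ8A and -0.71 for COQ5, and edgeR with all cows called 0 higher and 2 lower. Of 19 genes of cristae and mitochondrial fusion and fission 2 were lower (10.5%, against 14.8% of all genes), MFN2 (-0.61, adjusted p = 0.0116) and MIEF2. FIS1 missed the fold minimum (-0.54, adjusted p = 0.0135). A list of 8 further genes tied to the complexes but outside the symbol rule, not all of them subunits, held 1 lower gene (12.5%, against 14.8% of all genes). This was HIGD2A (-1.12, adjusted p = 0.0259). COX4I1 (-0.29), COX7A2L (-0.23) and NDUFAB1 (-0.08) were not called. MFN2 (-0.37, adjusted p = 0.149), MIEF2 (-0.90, adjusted p = 0.114) and HIGD2A (-0.73, adjusted p = 0.104) were not called without the 3 cows.

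Ribosomal proteins, the subunits of another large assembly, are given as a comparison. Of 72 tested cytosolic ribosomal protein genes, 14 were higher (19.4%, against 12% of all genes), with a median log2 fold change of 0.26, and none was called lower by limma, edgeR or DESeq2 (3 had an unadjusted p below 0.05 on that side with limma). Of 75 mitochondrial ribosomal protein genes, 6 were higher and 6 lower (8% each, against 12% and 14.8% of all genes), with a median of -0.19. Without the 3 cows 9 cytosolic genes were higher (12.5%, against 4.01% of all genes in that fit). Of the mitochondrial ones 5 were higher and 3 lower (together 10.7%, against 11.8% of all genes). The difference of these lists from the respiratory chain genes was not tested.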

How the data were processed

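Luteal poly-A RNA of 6 P and 6 NP cows was sequenced single-end. The authors trimmed with cutadapt, aligned with STAR (the submitters' processing notes give version 2.4.2a) to the build ARS-UCD1.2 and obtained Ensembl gene counts from htseq-count. The deposited table holds 15178 genes (1616 without a symbol) as normalized counts, a signal the authors made by dividing counts by DESeq2 size factors, rounded to 2 decimals. It also holds the authors' fold changes and p-values, which were not used. Of rows with 1 symbol, the one with the highest mean was used.

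Log2(value + 1) of 11907 genes with at least 30 normalized counts in 1 cow was fitted in R 4.3.3 by limma 3.58.1, its variance trend on, and p was adjusted by Benjamini-Hochberg over all of them. Fold changes are on this log2(value + 1) scale and understate changes of low genes. Each cow was 1 replicate. Isoform ratios were compared with two-sided exact permutation tests. Whole reads were computed back from the step size of each library (at least 99.987% of values were whole within 0.0051) for edgeR 4.0.16 and DESeq2 1.42.0. Further alternatives were other scalings, filters, pseudocounts and fold minimums, no variance trend, thinning to 2038858 reads, the library total as a covariate, 1 surrogate variable (sva 3.50.0) and leaving out cows. The test was checked on simulated counts. All genes and both groups had the same dispersion there, unlike the wider spread seen in P cows, so the error rate in these data was not measured.

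The members and gene lists were chosen with earlier results of these data known. Genes named with full values were, by complex, those with the smallest limma p and the 1 with the highest mean, and up to 2 per pathway list. Other called genes, and genes near a threshold, were named after their values had been seen. Values of a few genes in the fit are left out of the text. The reads are of Bos indicus cows on a genome of another cattle breed, and subunit genes can have processed copies elsewhere in the genome. How reads shared with such copies were counted is not given in the sources used here, and an effect on the counts was not tested.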

Additional observations from a re-analysis of the deposited data

Results flagged for a closer look

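NDUFA4, a subunit of complex IV, had 1581.55 normalized counts in P cow 01, set apart from the other 5 P cows, of which the nearest had 2303. The gap was 0.663 of the range of the group. It was the 1 such value in 148 tests (74 genes in 2 groups), where chance gives about 1 in 20. NP cows reached as low as 1574 normalized counts.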

How the results depend on the processing

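All 19 called subunits kept their direction under 25 alternatives that kept the fold minimum, and SDHA, COX5A, ATP5F1A and ATP5F1B also kept their call in all of them. Leaving out 1 cow at a time, 17 kept it, NDUFS5 lost it in 3 fits and ATP5F1C in 6, with 5 to 9 subunits called higher, 12 to 17 lower and 2521 to 3561 genes in all. Without P cows 01, 18 and 28, 1408 genes and 6 lower subunits were called, and COX7A1 over COX7A2 differed by 0.98, short of the threshold. With the library total as a covariate in limma, 510 genes, 4 lower and 0 higher subunits were called, although 17 subunits had an unadjusted p below 0.05 on the higher side and the 6 higher genes kept log2 fold changes of 0.63 to 0.94 (adjusted p from 0.0525 to 0.0743). Thinned to equal totals, the libraries gave 7 higher and 14 lower subunits, including all 19. A fold minimum of 1 left 1471 genes, 1 higher and 5 lower subunits, and no minimum gave 10 higher and 16 lower. SDHB turned to 0.19 without the 3 cows and 0.21 with the covariate (-0.14 to 0.017 leaving out 1 cow), and SDHD to -0.020 with upper quartile scaling, -0.030 without the 3 cows, -0.091 with the covariate and -0.033 with 1 surrogate variable (-0.042 to 0.17 leaving out 1 cow). Leaving out 1 cow, the ratios ranged from 1.14 to 1.41 for COX7A1 over COX7A2, 0.56 to 0.93 for COX4I2 over COX4I1, 0.47 to 0.78 for COX7A2L over COX7A2, 0.18 to 0.32 for NDUFA4L2 over NDUFA4 and -0.52 to -0.30 for ATP5MC2 over ATP5MC3. The causes were not tested. No paired analysis was possible because cow numbers are not shared between P and NP. With 11 to 127 reads per library, NDUFA12 was among the genes with the least depth.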
